A study of Mus musculus with 36 samples.

Results

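The genes described here are 10 outputs of the circadian clock, Ciart, Dbp, Tef, Hlf, Nfil3, Usp2, Wee1, Bhlhe40, Bhlhe41 and Coq10b, measured in mouse liver. They were taken by gene symbol, current or earlier, and account for 10 of the 18193 gene symbols on the array and for 18 of its 45101 probe sets. The list was drawn up with results of these arrays known, those of Lp-Het against Lp-WT livers first among them. Values of that comparison therefore describe the members and carry no test, and whatever they show is no evidence about the list. Of the 10 genes, 9 passed the filter on low signals; Bhlhe41 did not, and its 2 probe sets are given by their signals.

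The study compared livers of 5 mouse lines that model neural tube defects with their controls, 4 female mice and 4 arrays per group. Lp-Het mice were Vangl2Lp heterozygotes, set against Lp-WT mice of the same line. Cd-Het mice were Lrp6Cd heterozygotes, set against Cd-WT mice. Ct mice belonged to the ct stock, an outbred closed colony in which every animal was taken as ct/ct, and their controls were CBA/CaJ mice (CBA), so this pair differs in stock as well as in the mutation. Apob mice were Apobtm1Unc heterozygotes and Pax3 mice were Pax3Sp2H heterozygotes, and both were set against the same C57BL/6J mice (B6). All mice were 6 to 8 weeks old and had been fasted for 4 to 5 hours before dissection. The hour of day of dissection is not given in the sources used here. In pieces of whole liver, fewer cells of a type and less RNA per cell cannot be told apart.

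The liver clock is a transcriptional loop in which Clock and Arntl (Bmal1) activate genes through the E-box, and the Per and Cry proteins then repress them. Its first outputs are themselves regulators. Dbp, Tef and Hlf are the PAR bZIP (proline and acidic amino acid-rich basic leucine zipper) activators of the D-box, a site at which the related factor Nfil3 represses. Ciart (Chrono) represses Clock and Arntl activity, and Bhlhe40 and Bhlhe41 (Dec1 and Dec2) compete at E-boxes. Usp2 is a ubiquitin-specific protease, Wee1 a kinase that restrains entry into mitosis, and Coq10b a mitochondrial protein that binds coenzyme Q.

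The promoters of 4 genes are shown. By the brightest probe sets Ciart, Coq10b and Nfil3 had the widest differences between Lp-Het and Lp-WT livers in each direction. Dbp is the best known clock output of the liver. The other Usp2 probe set gave a log2 difference of 2.37, wider than that of Coq10b. Each line gives the 250 bases before the annotated start of transcription in RefSeq, build GRCm38.p6, 5′ to 3′ on the gene's strand. Capitals mark an E-box (CACGTG), a D-box (TTANGTAA) or the core of a ROR element (TAGGTCA), searched on both strands, so that a match may appear as its reverse complement. The Ciart promoter lies at chr3:95882229-95882478 on the minus strand, that of Coq10b at chr1:55052520-55052769 on the plus strand, that of Nfil3 at chr13:52981040-52981289 on the minus strand and that of Dbp at chr7:45704997-45705246 on the plus strand.
Ciart: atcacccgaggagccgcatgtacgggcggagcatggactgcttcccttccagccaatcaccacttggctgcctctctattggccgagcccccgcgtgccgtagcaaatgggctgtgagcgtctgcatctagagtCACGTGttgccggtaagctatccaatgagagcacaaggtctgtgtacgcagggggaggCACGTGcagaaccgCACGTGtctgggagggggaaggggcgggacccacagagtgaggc
Coq10b: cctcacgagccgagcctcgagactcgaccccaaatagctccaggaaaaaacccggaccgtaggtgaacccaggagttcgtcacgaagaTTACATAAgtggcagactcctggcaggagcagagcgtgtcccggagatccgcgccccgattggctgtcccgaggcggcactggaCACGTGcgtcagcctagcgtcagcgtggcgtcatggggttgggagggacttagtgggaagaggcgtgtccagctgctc
Nfil3: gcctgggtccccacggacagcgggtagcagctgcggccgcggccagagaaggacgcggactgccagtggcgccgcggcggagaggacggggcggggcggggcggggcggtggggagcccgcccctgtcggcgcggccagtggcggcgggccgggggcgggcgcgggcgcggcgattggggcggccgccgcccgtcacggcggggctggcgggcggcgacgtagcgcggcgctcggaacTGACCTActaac
Dbp: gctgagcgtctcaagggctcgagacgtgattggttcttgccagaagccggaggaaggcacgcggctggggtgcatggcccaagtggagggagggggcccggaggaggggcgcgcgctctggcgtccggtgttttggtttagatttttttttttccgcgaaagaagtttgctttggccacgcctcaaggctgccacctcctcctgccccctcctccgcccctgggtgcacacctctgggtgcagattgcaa

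The Ciart window held 3 E-boxes, whose first bases lie at -116, -58 and -44 from the start of transcription. Of 32851 RefSeq promoter windows of the same length, 6.02% held an E-box and 20 of them (0.0609%) held 3 or more. The Coq10b window held 1 E-box at -78 and 1 D-box at -162, and 2.06% of all windows held a D-box. The Nfil3 window held 1 ROR element core at -12, found in 2.23% of all windows, and no E-box. None of these matches overlapped another. Promoters were found for 8 members, 9 windows in all. Each of the 2 Tef windows and the Bhlhe41 window held 1 E-box, and the Dbp, Hlf and Usp2 windows held none of these letters, which says nothing about sites elsewhere in those genes. Wee1 and Bhlhe40 had no entry.

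Clock output genes were lower in Lp-WT livers than in Lp-Het livers for 8 of the 9 genes tested, with Nfil3 the exception. The median log2 difference, Lp-Het minus Lp-WT, was 1.06 over the 9 genes and -0.03 over all 13188 genes tested. Log2 differences above 0 were found for 45.1% of all genes. Log2 differences above 1 were found for 5 members, Ciart, Coq10b, Usp2, Dbp and Wee1, against 0.356% of all genes. In 4 members, Ciart, Coq10b, Wee1 and Tef, every Lp-Het array lay above every Lp-WT array, against 2.34% of all genes, and in 0 members did every Lp-Het array lie below, against 3.38%. These shares are given beside the counts only, since the list was chosen on this comparison.

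**Figure D1:**
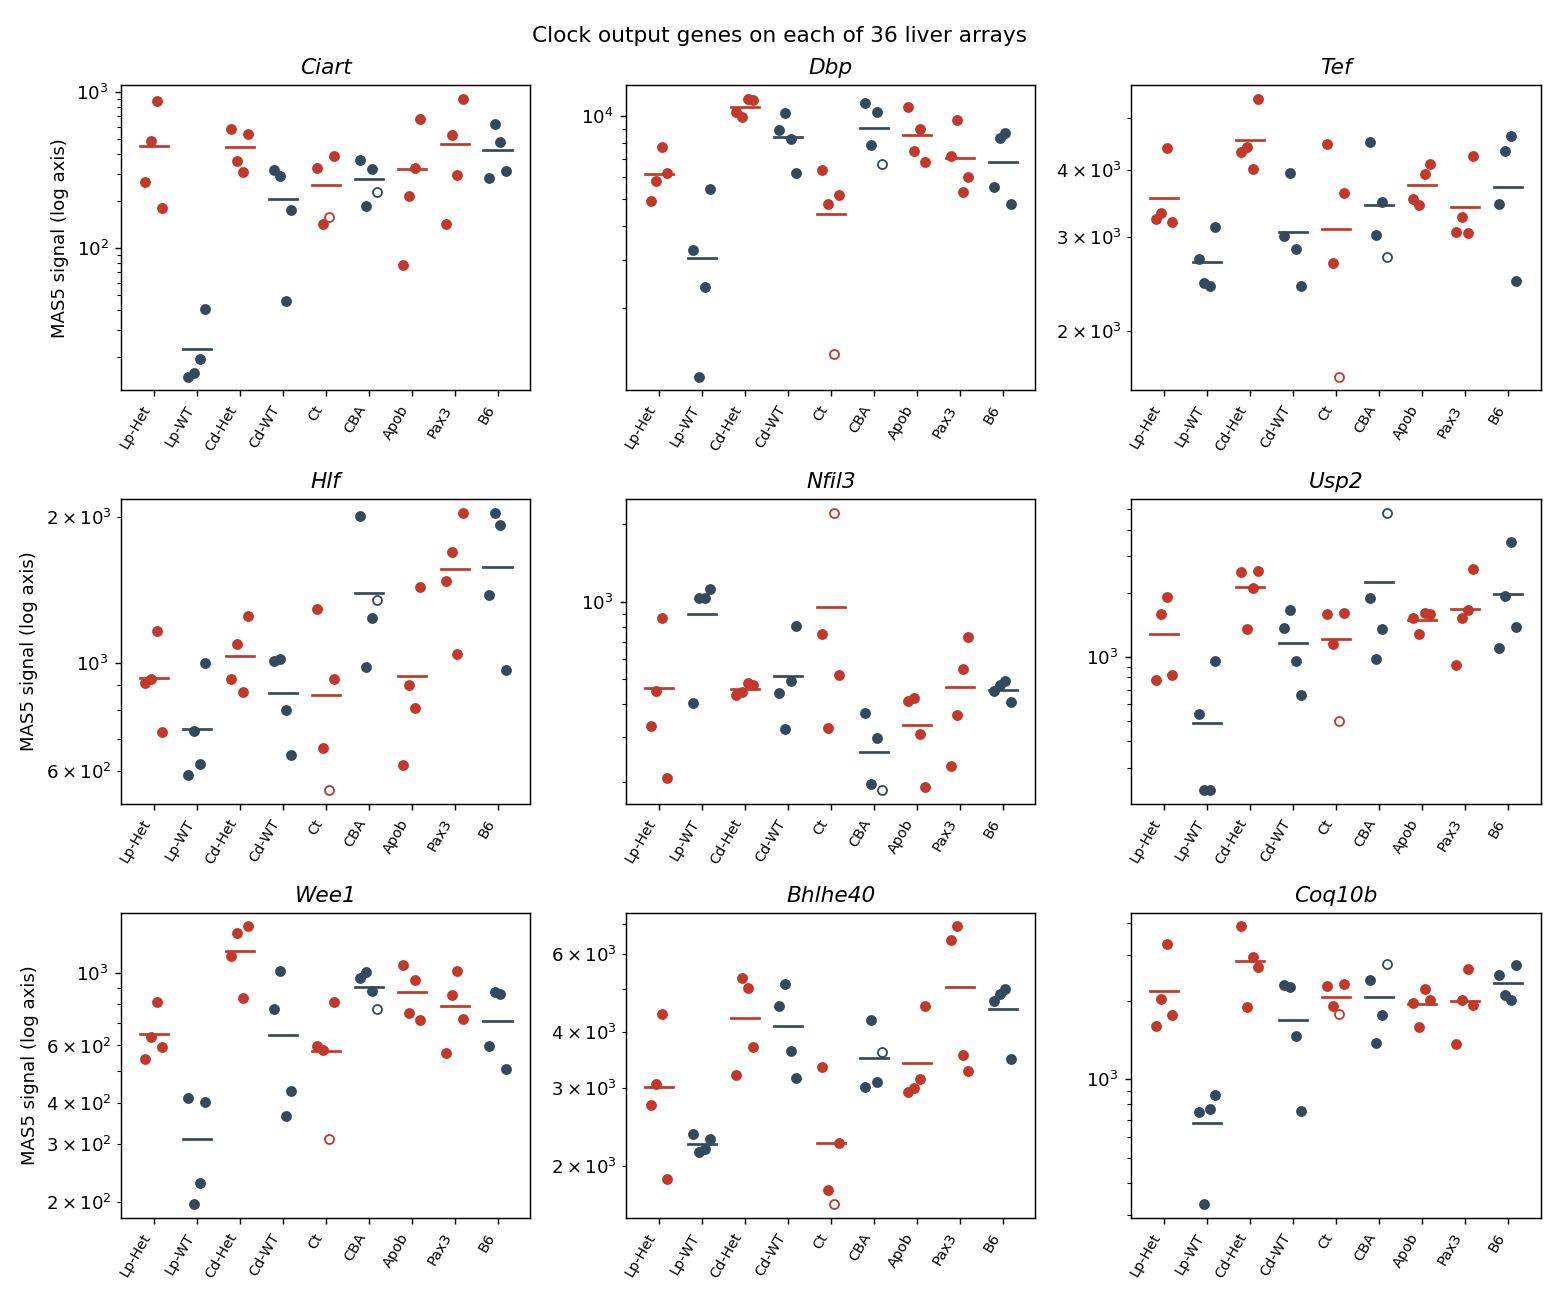
MAS5 signal of the 9 tested clock output genes on each of 36 liver arrays, on a log axis, for 9 groups of 4 mice. Points are arrays (red, mutant groups; dark blue, control groups; open, the 2 arrays of doubtful RNA, Ct replicate 3 and CBA replicate 4) and bars are group means; the 4 Lp-WT points of Ciart, 15.1 to 40.6, lie below those of all 32 other arrays.

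Among the repressors, Ciart had signals of 267, 483, 874 and 180 in Lp-Het livers, against 15.1, 15.9, 19.6 and 40.6 in Lp-WT livers. The means were 451 ± 309 in Lp-Het livers and 22.8 ± 12 in Lp-WT livers (SD, n = 4 each). The Lp-WT values are near background, as is their mean, so no ratio is given. All 4 Lp-WT arrays were lower than every other array, and the next one, a Cd-WT liver, stood at 46.1. The Lp-Het signals lay inside the range of the 28 arrays outside the Lp line, 46.1 to 904. On the log2 scale, after adding 23.1 to each signal, the difference was 3.17 ± 0.51 (SE). All 4 Lp-WT signals lay under 61.7, the signal that a gene's mean had to pass to be tested, so the size depends on the amount added. It was 3.87 with 5 added and 2.39 with 64 added, and it stayed between 2.79 and 3.50 when each Lp array was left out in turn.

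Bhlhe40 had signals of 2746, 3061, 4389 and 1874 in Lp-Het livers, against 2361, 2147, 2189 and 2298 in Lp-WT livers. The Lp-WT values were close together and lay inside the Lp-Het range, with a log2 difference of 0.36 ± 0.25. It was 0.16 without Lp-Het replicate 3 and 0.56 without Lp-Het replicate 4. Bhlhe41 was near background in both groups: its brighter probe set averaged 74.1 ± 52.7 in Lp-Het livers and 64.5 ± 27.1 in Lp-WT livers (SD, n = 4 each), and its dimmer probe set 10.9 ± 5.52 in Lp-Het livers and 10.8 ± 2.13 in Lp-WT livers.

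Of the PAR bZIP activators, Dbp had signals of 4903, 5795, 7739 and 6187 in Lp-Het livers, against 3265, 1129, 2385 and 5434 in Lp-WT livers. Lp-WT replicates 1 to 3 lay below every Lp-Het liver, and Lp-WT replicate 4 lay above the lowest Lp-Het liver. The log2 difference was 1.20 ± 0.35, and the gene's other probe set gave 1.22 ± 0.40. Without Lp-WT replicate 2 the difference was 0.80. Tef had signals of 3242, 3319, 4395 and 3198 in Lp-Het livers, against 2725, 2463, 2432 and 3135 in Lp-WT livers, a log2 difference of 0.39 ± 0.22 without overlap. Its 2 dimmer probe sets gave 0.38 ± 0.61 and 0.13 ± 0.28, with overlapping values. Hlf averaged 932 ± 182 in Lp-Het livers and 734 ± 188 in Lp-WT livers (SD, n = 4 each), with overlapping values and a log2 difference of 0.35 ± 0.27 (0.13 ± 0.20 in its other probe set).

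Nfil3, the repressor that shares the D-box with these activators, went the other way. Its signals were 331, 450, 865 and 208 in Lp-Het livers, against 406, 1034, 1037 and 1122 in Lp-WT livers. Lp-WT replicates 2, 3 and 4 ranked 33, 34 and 35 of the 36 arrays in rising order, while Lp-WT replicate 1 ranked 13 and lay among the Lp-Het values. The log2 difference was -1.0 ± 0.41, from means of 463 ± 285 in Lp-Het livers and 899 ± 332 in Lp-WT livers (SD, n = 4 each).

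The effector genes followed Ciart in direction. Coq10b had signals of 1597, 2033, 3312 and 1770 in Lp-Het livers, against 747, 330, 767 and 873 in Lp-WT livers, a log2 difference of 1.67 ± 0.30. Its other probe set, also without overlap, gave 1.70 ± 0.35. Wee1 had signals of 546, 637, 815 and 596 in Lp-Het livers, against 415, 197, 229 and 404 in Lp-WT livers, a log2 difference of 1.06 ± 0.28, and 0.79 ± 0.35 in its other probe set, both without overlap. Usp2 had signals of 781, 1598, 1921 and 826 in Lp-Het livers, against 537, 234, 236 and 953 in Lp-WT livers. Lp-WT replicate 4 lay inside the Lp-Het range, as for Dbp, and the log2 difference was 1.47 ± 0.45 (2.37 ± 0.47 in the other probe set). By the brightest probe sets, Lp-WT arrays took 3 of the 4 lowest places of 36 for Usp2, Dbp and Coq10b and 2 for Wee1. In the other Dbp probe set they took 2.

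The 12 tested core clock genes, of 15 listed, gave the setting of these outputs. In Lp-Het against Lp-WT livers 6 were above 0 and 6 below, with a median log2 difference of -0.01. Per3, a period gene, averaged 512 ± 186 in Lp-Het livers and 203 ± 27.4 in Lp-WT livers (SD, n = 4 each), a log2 difference of 1.18 ± 0.31. Per3 and the nuclear receptor gene Nr1d2 were the 2 core genes in which every Lp-Het array lay above every Lp-WT array, and in 0 did every one lie below. Per2 gave 0.64 ± 0.40, while Arntl, the activator that pairs with Clock, gave -0.63 ± 0.27 and Nr1d1, which represses Arntl, gave -0.32 ± 0.38, all with overlapping values. Of the 4 tested hepatocyte markers 2 were also higher in every Lp-Het array, and the summed signal of the 4 was 213359 to 294026 in Lp-Het livers, against 186868 to 212859 in Lp-WT livers. The summed signal of 6 Kupffer cell markers was 10761 to 16277 in Lp-Het livers, against 11078 to 15754 in Lp-WT livers. The part of these markers in the clock output values was not tested.

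**Figure D2:**
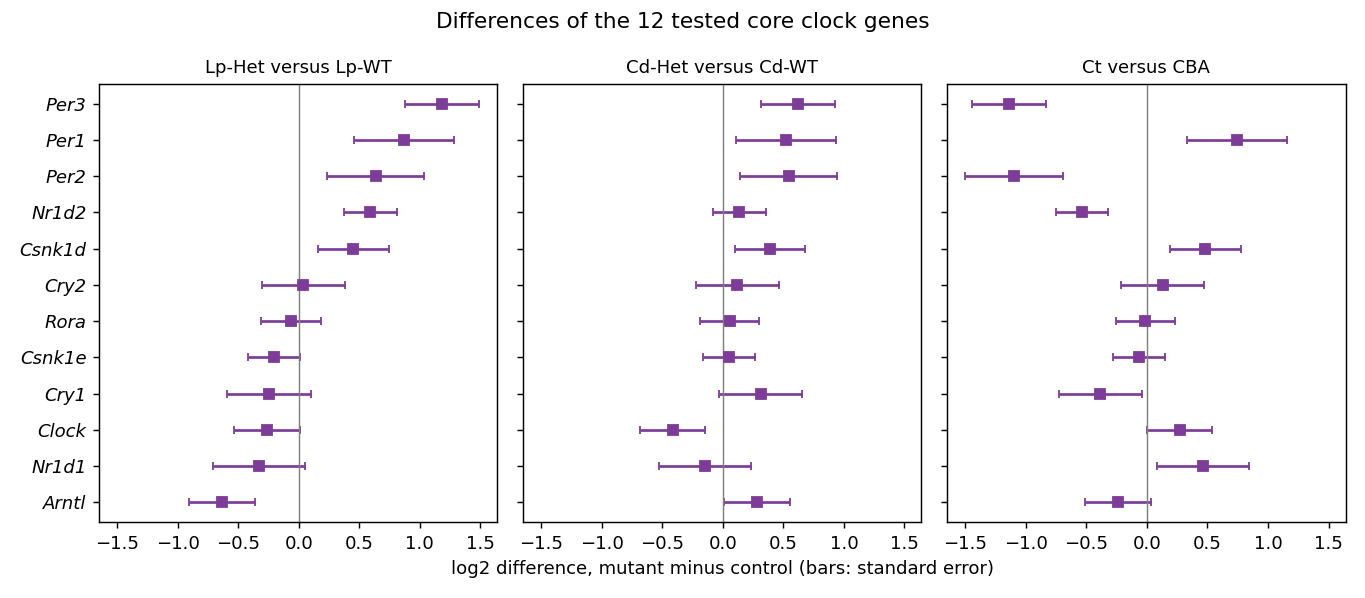
Log2 differences, mutant minus control, of the 12 tested core clock genes in 3 comparisons. Squares are estimates and bars standard errors from the fit to all 36 arrays (n = 4 per group); Per3 lies at 1.18 in Lp-Het against Lp-WT, at 0.62 in Cd-Het against Cd-WT and at -1.14 in Ct against CBA.

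Other lists were not uniformly displaced in the Lp line. Of 7 tested targets and partners of the PAR bZIP factors, 3 had log2 differences above 0 and 4 below, with a median of -0.16. Alas1, the rate-limiting enzyme of haem synthesis, was the 1 of these without overlap. It is named after its values were seen, and it averaged 12778 ± 6455 in Lp-Het livers and 2140 ± 966 in Lp-WT livers (SD, n = 4 each), a log2 difference of 2.52 ± 0.40. Of 12 genes that respond to glucocorticoids or fasting, 8 were above 0 and 4 below with a median of 0.30, 1 without overlap in each direction. Of 7 genes that follow body temperature, 3 were above 0 and 4 below with a median of -0.04, and 1 was higher in Lp-Het livers without overlap.

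In livers of Lrp6Cd heterozygotes no clock output gene passed the threshold, an adjusted p below 0.05 in limma with Benjamini-Hochberg adjustment over 13188 genes. The percentage of all genes called was 0 too. At an unadjusted p below 0.05 there were 4 members of 9, against 2.09% of all genes. Log2 differences, Cd-Het minus Cd-WT, were above 0 for 8 of the 9, against 51.1% of all genes, and their median was 0.58. By the brightest probe sets, Cd-Het livers had the highest group mean on the log2 scale for Ciart, Dbp, Tef, Usp2, Wee1 and Coq10b among the 9 groups. The lead over the next group passed the larger of their SDs only for Tef and Wee1. In the other Coq10b probe set Cd-Het stood at 10.80, below CBA at 11.22 and B6 at 10.83. In the dimmer Tef probe sets it stood at 7.61, below Apob at 8.59, and at 7.02, below Pax3 at 7.53.

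Wee1 had signals of 1123, 1320, 836 and 1381 in Cd-Het livers, against 775, 1014, 366 and 436 in Cd-WT livers, with 1 Cd-Het liver inside the Cd-WT range. Its log2 difference was 0.91 ± 0.28 (limma, unadjusted p = 0.00241, adjusted p = 0.999823). Tef was the 1 member without overlap, against 1.68% of all genes. Its signals were 4313, 4422, 4011 and 5432 in Cd-Het livers, against 3006, 3955, 2845 and 2426 in Cd-WT livers, a log2 difference of 0.58 ± 0.22 (limma, unadjusted p = 0.0129). Its 2 dimmer probe sets gave -0.70 ± 0.61 and 0.10 ± 0.28, with overlapping values.

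Coq10b gave 0.83 ± 0.30 and Ciart 1.21 ± 0.51 (limma, unadjusted p = 0.00898 and 0.0241). Ciart signals were 579, 360, 305 and 537 in Cd-Het livers, against 318, 290, 46.1 and 176 in Cd-WT livers. The value of Cd-WT replicate 3 weighed on that size: the log2 difference was 0.71 without it. For Coq10b it was 0.49 without Cd-WT replicate 4. Usp2 gave 0.90 ± 0.45, Dbp 0.38 ± 0.35, Hlf 0.26 ± 0.27, Bhlhe40 0.06 ± 0.25 and Nfil3 -0.08 ± 0.41, with all 9 members at an adjusted p of 0.999823 (limma). Of 12 core clock genes 0 were called and 0 reached an unadjusted p below 0.05 (limma). Their log2 differences were above 0 for 10, with Per3 at 0.62 ± 0.31, Per2 at 0.54 ± 0.40, Arntl at 0.28 ± 0.27 and Nr1d1 at -0.15 ± 0.38.

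**Figure D3:**
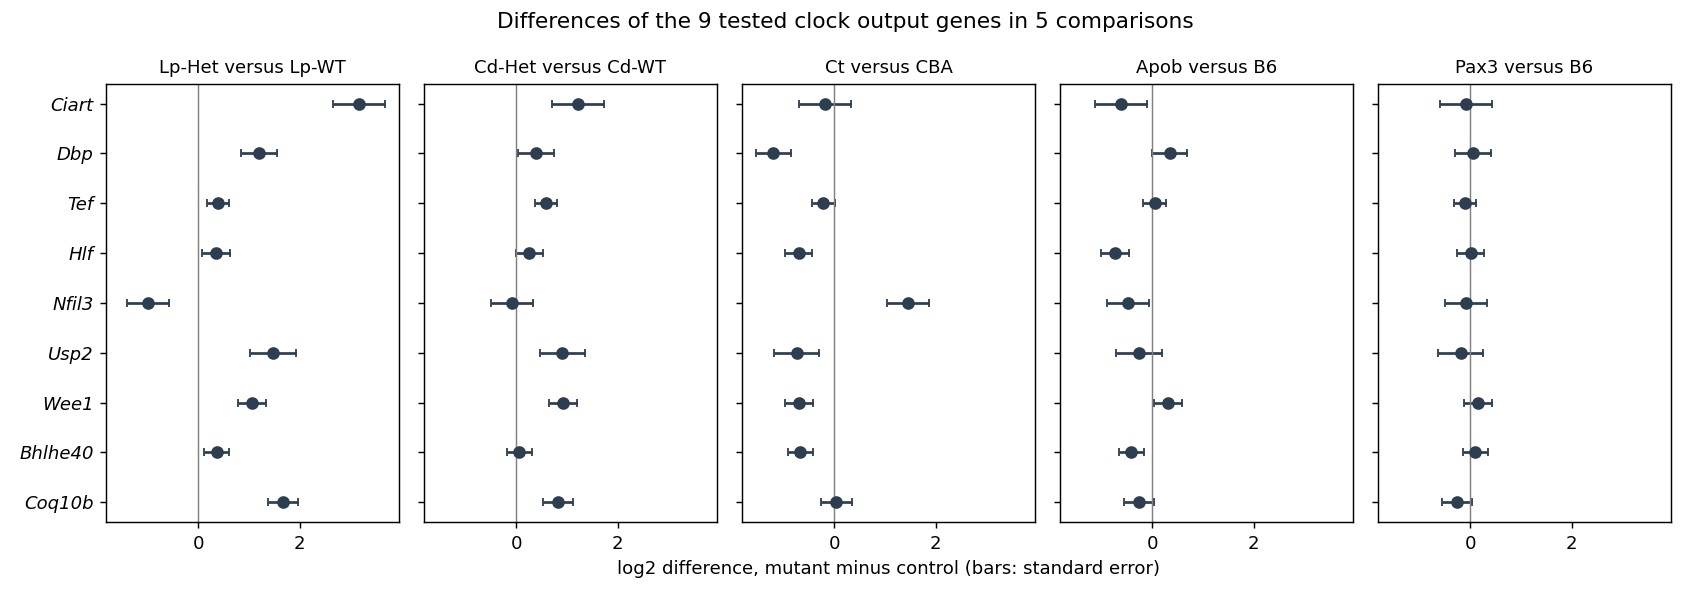
Log2 differences, mutant minus control, of the 9 tested clock output genes in 5 comparisons. Points are estimates and bars standard errors from the fit to all 36 arrays (n = 4 per group); Ciart lies at 3.17 in Lp-Het against Lp-WT, at 1.21 in Cd-Het against Cd-WT and between -0.62 and -0.08 in the other 3.

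In Ct livers Dbp fell and Nfil3 rose, and the 7 other members did not pass the threshold. The share of all genes called was 6.65%, 3.4% higher and 3.25% lower. Both calls were known when the list was made, so their p-values describe these 2 genes and are no evidence about the list. At an unadjusted p below 0.05 there were 5 members, against 24.1% of all genes. Dbp had signals of 6347, 4777, 1369 and 5156 in Ct livers, against 11192, 7842, 10369 and 6705 in CBA livers. Every Ct liver lay below every CBA liver, as for 3.56% of all genes, and the log2 difference was -1.20 ± 0.35 (limma, adjusted p = 0.0350). The other Dbp probe set gave -0.45 ± 0.40, with overlapping values. Nfil3 had signals of 751, 323, 2223 and 520 in Ct livers, against 370, 196, 296 and 185 in CBA livers, a log2 difference of 1.46 ± 0.41 (limma, adjusted p = 0.0298) with overlapping values.

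Both calls were lost without Ct replicate 3, and each was lost without 2 further livers. The ratio of 3′ to 5′ GAPDH probe sets, a measure of RNA integrity, reached 1.72 on Ct replicate 3 and 52.5 on CBA replicate 4, against 0.729 to 0.956 on the other 34 arrays. Without Ct replicate 3 the log2 difference of Dbp was -0.71 and that of Nfil3 0.94 (limma, adjusted p = 0.195 and 0.168). Dbp gave -1.09 without CBA replicate 1 and -1.13 without CBA replicate 3 (limma, adjusted p = 0.0626 and 0.0546). Nfil3 gave 1.35 without CBA replicate 2 and 1.33 without CBA replicate 4 (limma, adjusted p = 0.05003 and 0.0989). Without the Ct and CBA arrays of high GAPDH ratio the difference was -0.84 for Dbp and 0.80 for Nfil3 (limma, adjusted p = 0.207 and 0.38), and 0 members were called. Markers of other liver cells moved in the same livers. Of 6 Kupffer cell markers 5 rose in Ct livers, among them Marco, C1qb, Clec4f and C1qc at 2.79, 1.56, 1.24 and 1.39 (limma, adjusted p = 0.0155 to 0.0293), and their summed signal was 9758 to 67877 in Ct livers, against 2672 to 12391 in CBA livers. Without the 2 arrays the summed signal was 9758 to 15060 in Ct livers, against 9192 to 12391 in CBA livers, and the 4 named markers no longer passed (limma, adjusted p = 0.173 to 0.685). Of 5 stellate cell markers 1 rose, Rgs5, a regulator of G protein signalling, at 1.14 ± 0.24 (limma, adjusted p = 0.00385). Without the 2 arrays Rgs5 gave 0.80 (limma, adjusted p = 0.0968). The summed stellate signal, 9644 to 14007 in Ct livers, against 6609 to 9204 in CBA livers, still did not overlap. Over all arrays, 2 of the 5 stellate markers had log2 differences above 0 and 3 below. Rgs5 made up most of the sum, with means of 11298 ± 3841 in Ct livers and 5018 ± 1321 in CBA livers (SD, n = 4 each). The part of these markers in the clock output values was not tested.

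Hlf, Wee1 and Bhlhe40 gave log2 differences of -0.71 ± 0.27, -0.69 ± 0.28 and -0.67 ± 0.25 in Ct against CBA livers, with adjusted p of 0.100, 0.115 and 0.0902 (limma). Hlf and Bhlhe40 passed without Ct replicate 1, at -0.92 and -0.88 (limma, adjusted p = 0.0303 and 0.0249), but both gave -0.52 without the 2 arrays of high GAPDH ratio (limma, adjusted p = 0.464 and 0.418). The other Hlf probe set gave -0.61 ± 0.20, with every Ct liver below every CBA liver. Without those 2 arrays its signals were 710, 582 and 638 in Ct livers, against 914, 908 and 938 in CBA livers. The other Wee1 probe set gave -0.66 ± 0.35, with overlapping values. Usp2 gave -0.74 ± 0.45, Tef -0.22 ± 0.22, Ciart -0.18 ± 0.51 and Coq10b 0.04 ± 0.30. Usp2 gave -0.29 without CBA replicate 4 and turned to 0.08 without the 2 arrays of high GAPDH ratio, and the other Coq10b probe set gave -0.54 ± 0.35, so neither gene had a settled direction. Of the 12 core clock genes 1 was called, Per3, which fell in Ct livers. It averaged 270 ± 94.6 in Ct livers and 640 ± 283 in CBA livers (SD, n = 4 each), a log2 difference of -1.14 ± 0.31 (limma, adjusted p = 0.0230). The Per3 difference was -1.17 without both arrays (limma, adjusted p = 0.0258) but -0.86 without Ct replicate 3 alone and -0.90 without CBA replicate 1 (limma, adjusted p = 0.120 and 0.0646). Per2 gave -1.10 ± 0.40, Nr1d1 0.46 ± 0.38 and Arntl -0.24 ± 0.27.

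Among the other lists in Ct against CBA livers, 1 of 7 targets and partners of PAR bZIP factors fell, Cyp7a1, which starts the main route from cholesterol to bile acids, at -2.20 ± 0.66 (limma, adjusted p = 0.0402). Of 12 glucocorticoid or fasting genes 1 rose, Angptl4, an inhibitor of lipoprotein lipase, at 1.04 ± 0.29 (limma, adjusted p = 0.0262). Of 7 temperature genes 1 rose, the chaperone Hspa8, at 0.89 ± 0.17 (limma, adjusted p = 0.00131). Without both arrays of doubtful RNA, Hspa8 gave 0.76 (limma, adjusted p = 0.0163), and Cyp7a1 and Angptl4 no longer passed, at -1.05 and 0.77 (limma, adjusted p = 0.522 and 0.101). Cyp7a1 was also lost without any one of Ct replicates 1, 2 and 3 and CBA replicates 1 and 4, at -2.40 to -1.49 (limma, adjusted p = 0.0512 to 0.195). Angptl4 was lost without Ct replicate 1, Ct replicate 4 or CBA replicate 4, at 0.61 to 0.99 (limma, adjusted p = 0.0535 to 0.161). Fitted on the Ct and CBA arrays alone, neither these 3 genes nor Dbp, Nfil3 and Per3 passed (limma, adjusted p = 0.363 to 0.579).

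The Apob and Pax3 comparisons share the B6 controls. In Apob livers 0 of 9 members were called by limma, against 0.538% of all genes, and 1 had an unadjusted p below 0.05, against 10.9%. That gene was Hlf, with signals of 617, 901, 809 and 1434 in Apob livers, against 1382, 2032, 1920 and 966 in B6 livers. Its log2 difference was -0.74 ± 0.27 (limma, adjusted p = 0.252), and its other probe set gave 0.11 ± 0.20. By their brightest probe sets the other members lay between -0.62 and 0.34, Ciart lowest and Dbp highest. The 2 probe sets of Coq10b differed. The brighter gave -0.26 ± 0.30 with overlapping values, and the other -0.77 ± 0.35, with means of 1066 ± 259 in Apob livers and 1817 ± 303 in B6 livers (SD, n = 4 each) and every Apob liver below every B6 liver. Ciart signals were 78.5, 216, 325 and 675 in Apob livers, against 283, 627, 479 and 310 in B6 livers, the Apob range enclosing the B6 one. In the other lists, 12 glucocorticoid or fasting genes gave 1 above 0 and 11 below, with a median of -0.57. The 7 targets and partners of PAR bZIP factors gave 1 above 0 and 6 below, and the 7 temperature genes 5 above and 2 below. None of these genes was called by limma. At an unadjusted p below 0.05 (limma) there were 6 of the 12 glucocorticoid or fasting genes, against 10.9% of all genes. There were 3 of the 7 PAR bZIP targets and partners and 1 of the 7 temperature genes. Alas1 gave -1.58 ± 0.40 (limma, adjusted p = 0.0614), with every Apob liver below every B6 liver. The share of all genes that lay wholly below is not given for this comparison. The separations of Alas1 and of the second Coq10b probe set are therefore descriptions only.

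In Pax3 livers 0 of 9 members were called by limma, against 0 percent of all genes, and 0 had an unadjusted p below 0.05, against 5.32%. Log2 differences lay between -0.26 for Coq10b and 0.16 for Wee1. Ciart signals were 144, 528, 293 and 904 in Pax3 livers, against 283, 627, 479 and 310 in B6 livers. Dbp averaged 7050 ± 1939 in Pax3 livers and 6839 ± 1970 in B6 livers (SD, n = 4 each). Of the 12 core clock genes 0 were called in either comparison. Per3 gave -0.56 ± 0.31, Per2 -0.20 ± 0.40, Arntl -0.04 ± 0.27 and Nr1d1 0.25 ± 0.38 in Apob against B6 livers. In Pax3 against B6 livers Per3 gave 0.12 ± 0.31, Per2 0.09 ± 0.40, Arntl -0.36 ± 0.27 and Nr1d1 -0.03 ± 0.38.

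Whether the members differed among the Cd-Het, Ct, Apob and Pax3 effects was tested with a moderated F test in limma, leaving out the Lp line. No member passed, against 2.93% of all genes, and 5 of 9 had an unadjusted p below 0.05, against 18.5%. The lowest adjusted p was that of Wee1, 0.0702. The count became 1 without Cd-WT replicate 2 or without Ct replicate 4. The same test among the B6, Cd-WT and CBA controls called 0 members, against 10.2% of all genes, and 1 had an unadjusted p below 0.05, against 26.5%. Without B6 replicate 4 the test called 1 member. The member with the unadjusted p was Hlf (limma, adjusted p = 0.0902), with group means of 1575 ± 496 in B6, 869 ± 178 in Cd-WT and 1394 ± 438 in CBA livers (SD, n = 4 each). The other Hlf probe set gave another order, with B6 lowest. Its means were 781 ± 74.7 in B6, 977 ± 81.1 in Cd-WT and 1080 ± 321 in CBA livers (SD, n = 4 each).

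In falling order of mean log2 signal of Ciart the groups were Cd-Het, B6, Pax3, Lp-Het, CBA, Apob, Ct, Cd-WT and Lp-WT. The one pair of neighbours further apart than the larger of their SDs was Cd-WT and Lp-WT, with no overlap. That gap was 2.13 after the amount added, but Lp-WT signals of Ciart were near background, so its size is set in part by that amount. Usp2 and Coq10b showed their widest gap at the same place, 1.36 and 1.25, with overlapping values. For Wee1 the gap to Lp-WT, 0.84, followed Ct, and Cd-Het lay 0.34 above CBA. For Tef the step of 0.27 between Cd-Het and Apob passed the larger SD. No neighbours passed it for Dbp, Hlf, Nfil3, Bhlhe40 or Bhlhe41. Nfil3 was highest in Lp-WT, then Ct, and lowest in CBA.

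Mice of the same group also differed from one another in these genes. Ciart had an SD within groups of 0.81 on the log2 scale, above that of 98.9% of all genes tested. Usp2 stood at 0.59 (91.9%), Nfil3 at 0.54 (89.0%), and Tef at 0.26 (35.0%). Every gene was regressed on Ciart with the group means taken out, on the 34 arrays with GAPDH ratios below 1. No member passed, against 0.00758% of all genes (1 gene, Tuba1a), and 5 of 8 had an unadjusted p below 0.05, against 18.3%. The count became 1 without Lp-Het replicate 2, Cd-WT replicate 3 or Pax3 replicate 1. All 8 slopes were above 0, against 48.9% of all genes.

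Hlf had the lowest p of the members, with a slope of 0.34 ± 0.07 log2 units per log2 unit of Ciart, rank 3 of 13187 genes by p (limma, adjusted p = 0.0668). Usp2 gave 0.44 ± 0.11 and Tef 0.20 ± 0.05 (limma, adjusted p = 0.122 for both). Coq10b gave 0.22 ± 0.09 and Wee1 0.20 ± 0.08, while Nfil3 gave 0.21 ± 0.12, Bhlhe40 0.12 ± 0.08 and Dbp 0.10 ± 0.10.

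**Figure D4:**
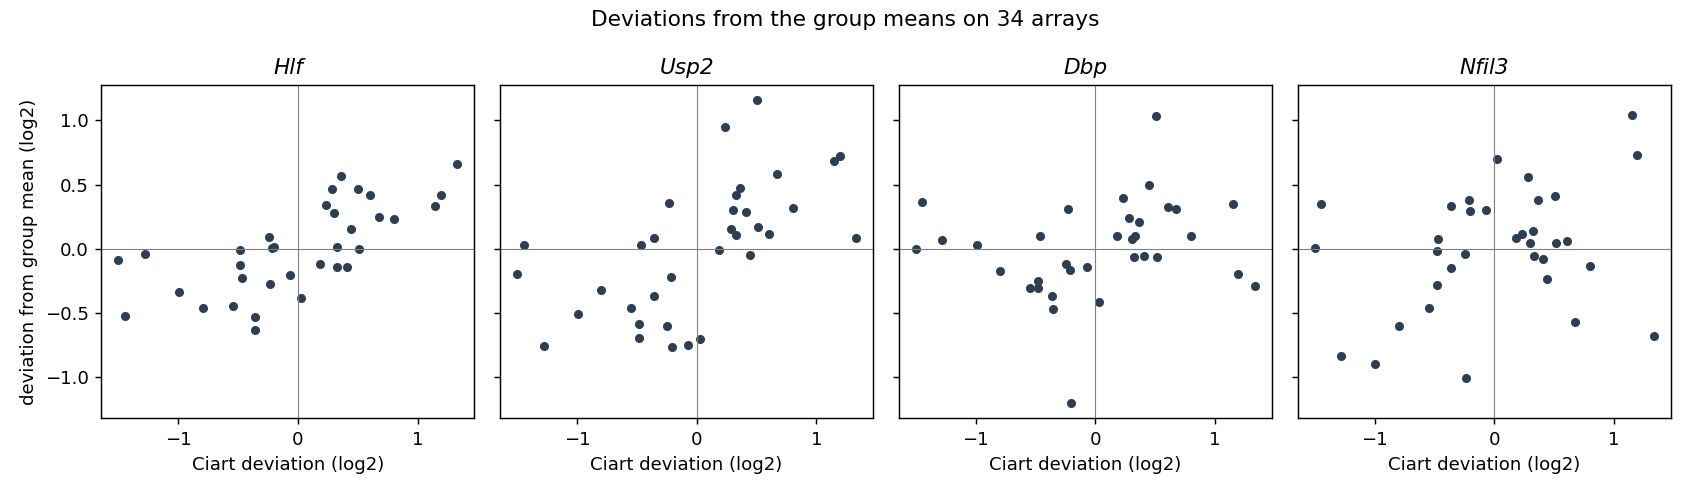
Deviation of Hlf, Usp2, Dbp and Nfil3 from their group means (vertical axes, log2 units) against that of Ciart (horizontal axes, log2 units) on 34 arrays, 1 point per array, CBA replicate 4 and Ct replicate 3 left out. Hlf and Usp2 run upward with Ciart, with slopes of 0.34 and 0.44, and Dbp and Nfil3 scatter more widely about slopes of 0.10 and 0.21.

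Over these within-group deviations the 28 pairs of tested members other than Nfil3 all had Pearson correlations above 0, from 0.11 to 0.84 with a median of 0.48. Pairs with Nfil3 ran from -0.08 to 0.32. These values describe 34 arrays that share groups and array processing, and no p is given. The non-members most like Ciart were Rnf8 (Pearson's r 0.76, Spearman's rho 0.71), Marveld1, Jmjd4, Znrf2 and Rp9, all at r of 0.69 or above, and the most opposed were Cbwd1 (r -0.76, rho -0.73), Tuba1a, Pigh, Rtca and Myl9, all at r of -0.67 or below. For Dbp the most like were Fam76a (r 0.77, rho 0.84), Pank1, Rabl6, Fam117a and Zbtb2, and the most opposed 4930422I22Rik (r -0.72, rho -0.65), Poglut1, Nup88, Zfp207 and Il17rd.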

How the data were processed

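RNA from livers of 36 mice in 9 groups was measured on 1 Affymetrix array each. The authors deposited linear signal intensity per probe set, made with MAS5 per the submitters' processing notes, whose version is not given in the sources used here. MAS5 scales each array to 1 level and is noisy near background. Probe sets were named from the platform table and RefSeq GRCm38.p6: 34945 had 1 symbol, 932 several, and 9160 are unnamed here, and 64 were array controls. Signals were analysed as log2(signal + 23.1), the amount added being the 20th percentile of all signals. Probe sets with a mean above 6.41 (signal 61.7, the 40th percentile) were kept, and the brightest stood for its gene, which left 13188 genes. Limma 3.58.1 in R 4.3.3 fitted 1 mean per group to all 36 arrays, with a variance trend. Tests were two-sided, with Benjamini-Hochberg adjustment and a threshold of 0.05. The number of arrays, 4 per group, limits the precision, and errors of log2 differences are standard errors of this model. The script was tested on simulated data. Members and lists were chosen with earlier results of these data known; for the Lp line no p is given. The genes named are all members, up to 4 called genes of each other list by smallest p, Arntl, Per2, Per3 and Nr1d1, and the 5 genes most and least correlated with Ciart and Dbp; Alas1 and Nr1d2 were named after their values were seen. Same-numbered arrays of a comparison did not deviate together throughout, so the numbers were not taken to pair samples. Their correlations were -0.14 to 0.18 in the Lp line and 0.20, 0.20, -0.02 and 0.11 in Ct against CBA. In Cd-Het against Cd-WT they were 0.09, 0.01, 0.08 and 0.08. They were -0.07 to 0.09 in Apob against B6 and -0.10 to 0.07 in Pax3 against B6. In Ct against CBA, numbers 1, 2 and 4 each correlated above the highest value given with another number. So did numbers 1, 3 and 4 in Cd-Het against Cd-WT, number 3 in the Lp line, number 2 in Apob against B6 and numbers 2 and 3 in Pax3 against B6. Whether same-numbered arrays shared a batch was not tested. Alternatives covered scaling, the amount added, the filter, the variance model, the choice of probe set, the arrays included and a replicate block.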

Additional observations from a re-analysis of the deposited data

Results flagged for a closer look

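In 6 of 90 pairs of a member and a group, 1 liver stood apart from the other 3 by more than Dixon's 95% critical value for 4 samples. The rule was applied to log2(signal + 23.1), while the values printed here are signals. Chance alone gives about 4.5 such pairs, 1 in 20. Tef reached 4395 in Lp-Het replicate 3, against 3198, 3242 and 3319 in the other Lp-Het livers. Nfil3 was 405.5 in Lp-WT replicate 1, against 1034, 1037 and 1122. Coq10b was 330.5 in Lp-WT replicate 2, against 746.9, 767 and 873.2. Bhlhe40 was 4578 in Apob replicate 4, against 2936, 3003 and 3142, and 3489 in B6 replicate 4, against 4709, 4868 and 5007. Bhlhe41, near background, was 37.63 in Apob replicate 3, against 98.16, 100.3 and 105.5. The GAPDH ratios of all 8 Lp arrays lay between 0.755 and 0.930.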

How the results depend on the processing

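The count of members without overlap in the Lp line, 4, was 3 or 4 over 12 other settings and 4 to 6 when each array was left out (6 without Lp-WT replicate 4). Leaving out an array cannot lower this count, and the variance model, array weights and replicate block do not enter it. These figures therefore do not show that the count is stable. No share of all genes is given for the smaller groups. The 2 calls in Ct against CBA livers became 1 with median centring and 0 with array weights, without both doubtful arrays or with these groups fitted alone, and ran from 0 to 4 when single arrays were left out. Counts of 0 became 1 with array weights in Apob against B6 livers and among the controls, 2 with array weights among the 4 effects, and 1 with median centring for the slopes on Ciart; leaving out single arrays gave 0 to 1 for both F tests and the slopes. Counts for Cd-Het and Pax3 were 0 under all settings run. With the replicate number as a block the counts were 2 for Ct and 0 for the other 6 results, so the block changed none of these. It does not enter the Lp count, which was bound to stay at 4. The numbers were not taken as a pairing, since not every same-numbered pair correlated above 0.1. The cause of these shifts was not tested. Only differences that passed no threshold turned in sign. Array weights gave 0.0221 for Nfil3 and -0.0120 for Bhlhe40 in Cd-Het, 0.19 for Ciart and 0.11 for Usp2 in Ct, -0.0065 for Tef in Apob and -0.0039 for Hlf in Pax3 livers. Median centring gave -0.0178 for Tef in Apob and -0.0288 for Hlf in Pax3 livers, quantile normalization -0.0347 for Hlf in Pax3 livers, and both doubtful arrays left out 0.0794 for Usp2 in Ct livers. Leaving out single arrays, Nfil3 ran from -0.27 to 0.15 and Bhlhe40 from -0.0609 to 0.1911 in Cd-Het, Ciart from -0.4050 to 0.0324, Tef from -0.4218 to 0.0543 and Coq10b from -0.14 to 0.20 in Ct, and Tef from -0.13 to 0.16 and Usp2 from -0.4917 to 0.0564 in Apob livers. In Pax3 livers the ranges were -0.47 to 0.35 for Ciart, -0.11 to 0.18 for Dbp, -0.2809 to 0.0162 for Tef, -0.21 to 0.18 for Hlf, -0.32 to 0.20 for Nfil3, -0.43 to 0.13 for Usp2 and -0.0823 to 0.2751 for Bhlhe40.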
